A study of Mus musculus with 24 samples.

Results

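The passage from the stage coded dp18 to the stage coded Lac10 was described in wild-type mice, on 3 arrays of each stage, which are 6 of the 24 arrays in the series. The 6 arrays are those labelled wild type and dp18 or Lac10, and this comparison was chosen with earlier results of these data known. The series compares wild-type with mutant mice at 4 stage codes (V, dp12, dp18, Lac10), in 8 groups of 3 single-colour arrays, and its subject is BRCA1 during pregnancy. All animals share a mixed background that is mainly FVB, with smaller shares of 129SVEV and Black Swiss. The wild-type groups carried no allele or agent that the labels name, and they state neither age nor tissue. Here dp and Lac are read as day of pregnancy and day of lactation, although the design text calls the numbers months. The titles give body weights of 28, 39 and 39 g for Lac10 replicates 1, 2 and 3, and of 40 and 50 g for dp18 replicates 2 and 3. One label describes a pull-down of RNA with a tagged PAB-1 protein while the others name total RNA, and this conflict was not settled.

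In the mammary gland the secretory alveoli mature in late pregnancy and begin full milk output after birth. Prolactin acts through its receptor and the transcription factor Stat5 on milk protein genes such as the caseins, and Elf5 acts beside it. Milk fat is built in the same cells from fatty acids and sterols whose synthesis is driven by the SREBP factors, while pumps and carriers of the cell membrane move calcium, phosphate, zinc and iodide into milk.

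The promoters below are shown because they carry short elements that Stat5, basic helix-loop-helix factors and interferon factors are known to bind, in genes whose levels are described further on. They come from the RefSeq promoter table (build GRCm38.p6) and read 5′ to 3′ on the gene's own strand. The first pair holds TTCNNNGAA, the Stat5 element, in capitals. They lie on chr5:87666078-87666146 (plus strand, bases -130 to -62 from the start site) and chr5:87699480-87699548 (minus strand, bases -123 to -55).
Csn1s1: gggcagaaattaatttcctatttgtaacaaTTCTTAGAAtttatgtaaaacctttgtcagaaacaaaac
Csn2: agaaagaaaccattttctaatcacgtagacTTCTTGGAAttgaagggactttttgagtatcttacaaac

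Of 5 casein genes, 3 have an entry in that table and all 3 held TTCNNNGAA, against 9.55% of 27025 promoters of the same length. The second pair holds CACGTG, the E-box, in capitals, and belongs to a citrate carrier gene and a sterol regulator gene that were called higher at Lac10. They lie on chr16:17928423-17928469 (minus strand, bases -250 to -204) and chr5:28071281-28071346 (plus strand, bases -131 to -66).
Slc25a1: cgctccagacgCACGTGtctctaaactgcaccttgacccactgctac
Insig1: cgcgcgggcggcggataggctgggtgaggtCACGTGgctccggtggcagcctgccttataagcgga

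The last pair holds the interferon response element, searched as GAAA and GAAA with any 2 bases between them, in capitals. It lies on chr19:34640755-34640843 (plus strand, bases -134 to -46) and chr12:26456533-26456602 (minus strand, bases -150 to -81).
Ifit1: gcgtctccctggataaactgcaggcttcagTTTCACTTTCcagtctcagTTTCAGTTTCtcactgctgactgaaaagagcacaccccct
Rsad2: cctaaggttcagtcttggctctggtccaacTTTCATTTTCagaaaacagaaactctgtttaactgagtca

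Both strands were searched for each motif. TTCNNNGAA and CACGTG read the same on either strand, TTCNNNGAA can share bases with the interferon element, and CACGTG can share bases with TCACNCCAC, a sterol regulatory element. Of 22 interferon-stimulated genes with a promoter 14 held the interferon element (63.6%, against 3.99% of all promoters). Among 99 promoters of genes called higher at Lac10, described below, 15 held CACGTG (15.2%, against 8.09% of all), 4 held TCACNCCAC (4.04%, against 1.44%), 6 held TTCNNNGAA (6.06%, against 9.55%) and 1 held the interferon element (1.01%, against 3.99%). Among 13 promoters of genes called lower, 3 held CACGTG (23.1%), 2 held TTCNNNGAA (15.4%) and 0 held either of the other elements. These matches are letters in a window and were not tested as binding sites.

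Values are log2 expression levels from RMA, a method that corrects background, normalises between arrays and combines the probes of a set. Differences are Lac10 minus dp18 on that scale, with the standard error (SE) of the limma fit, a linear model fitted to each of 15234 genes over all arrays of the series. A gene is said to rise or fall, or to be called, where its Benjamini-Hochberg adjusted p was under 0.05. An exact permutation test of 3 arrays against 3 cannot go below p = 0.1, so no single gene was tested that way. The titles number the arrays apart but do not state separate animals, so a p-value speaks only of the spread from array to array. Precision is limited by how few arrays there are: the median SE over genes was 0.30.

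No label names the tissue, so the 6 arrays were set against markers of the mammary gland. Csn2, the beta-casein gene, lay at 13.17, 12.91 and 12.94 on dp18 arrays and at 12.86, 13.07 and 12.82 on Lac10 arrays. It was also high at the earlier stages, between 11.48 and 12.63 on wild-type V arrays and between 12.54 and 12.83 on wild-type dp12 arrays, so its level does not set dp18 and Lac10 apart. The highest value of any probe set on any array was 13.5. Krt8, a luminal keratin gene, lay between 10.45 and 11.71, and Acta2, the smooth muscle actin gene of myoepithelium, between 12.01 and 12.45. Adipoq, an adipocyte hormone gene, lay between 4.39 and 5.05, below the median of all probe sets, which was 5.31 to 5.62 across the arrays of the series. Other adipocyte markers lay higher. The 12 tested genes of the white adipocyte list had mean levels between 7.06 and 7.70 on the 6 arrays.

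One array in each group stood apart from its label or from the other arrays. Nonagouti (symbol a) encodes the agouti signalling protein, a pigment switch of hair follicles. It lay at 9.18 on the array labelled wild-type Lac10 replicate 1 but between 4.76 and 5.19 on the other 11 wild-type arrays. On mutant arrays it lay between 7.31 and 8.95, apart from Lac10 replicate 2 at 6.54 and the array labelled mutant dp18 replicate 2 at 4.96. The titles give a white coat for that Lac10 array and a brown coat for Lac10 replicates 2 and 3. Of the dp18 arrays, replicate 2 has a white coat with nonagouti at 4.76, and replicate 3 a brown coat with nonagouti at 4.95.

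**Figure D1:**
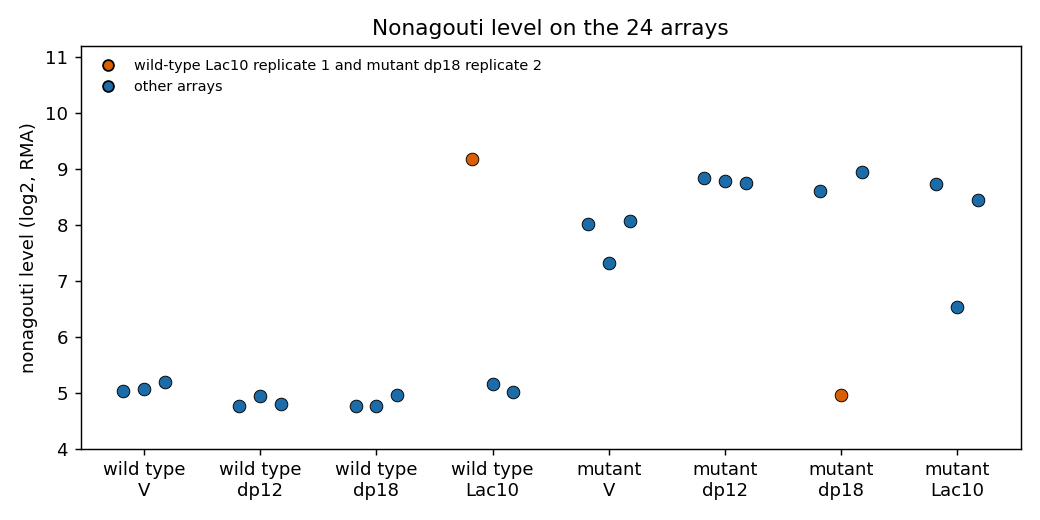
Nonagouti level (log2, RMA; vertical axis) on each of the 24 arrays, by genotype and stage (horizontal axis), with 1 point per array and orange for the 2 arrays named next. Their levels are 9.18 for wild-type Lac10 replicate 1 as labelled and 4.96 for mutant dp18 replicate 2 as labelled, while the other 11 wild-type arrays lie between 4.76 and 5.19.

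Over the 15234 genes tested, the array labelled wild-type Lac10 replicate 1 correlated at 0.970 and 0.972 with dp18 replicates 2 and 3, and at 0.941 and 0.933 with Lac10 replicates 2 and 3. Lac10 replicates 2 and 3 correlated at 0.974 with each other, and dp18 replicates 2 and 3 at 0.976. When each array was expressed as its deviation from the mean of all arrays, the array labelled Lac10 replicate 1 correlated at 0.206 with the mean of the other arrays of its group and highest, at 0.580, with mutant dp12. This measure does not single that array out, because the dp18 arrays lay lower on it. Replicates 1, 2 and 3 of dp18 correlated at -0.568, -0.237 and -0.337 with their own group. Replicate 1 of dp18 was closest to mutant Lac10, and replicates 2 and 3 to wild-type dp12. Replicate 1 of dp18 correlated at 0.783 to 0.800 with the other 5 arrays, and its SD over probe sets was 1.68. Counts of called genes are therefore given with all 6 arrays and without the array labelled Lac10 replicate 1. From the 148 genes onward, differences, adjusted p values and list medians are those without that array, unless 6 arrays are named. The 6-array values are added for only some genes and lists. That array was singled out from its own values, so the second version is not independent of the data. Where a call depended on dp18 replicate 1, the value without it is added.

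With all 6 arrays no gene passed the threshold in limma, which is 0% of genes tested. The smallest adjusted p was 0.353, and before adjustment 1219 genes had p under 0.05. Array weights, which count arrays far from their group for less, gave 3898 calls in limma, 1524 higher and 2374 lower. The median difference over all genes was 0.09. All 3 Lac10 arrays lay above all 3 dp18 arrays in 9.83% of genes and below them in 2.67%.

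Among the 10 genes of smallest p with 6 arrays, every one was higher at Lac10 and none had groups that overlapped. A ranking by p on these same arrays favours groups that lie apart. Stx19, a syntaxin of membrane fusion, lay at 5.71, 5.99 and 5.83 on dp18 arrays and at 6.88, 7.32 and 7.64 on Lac10 arrays, a difference of 1.44 (limma, adjusted p = 0.353). Slc5a6, the sodium-dependent vitamin carrier for biotin and pantothenate, lay at 6.01, 6.60 and 5.92 and then at 6.94, 7.98 and 8.05, a difference of 1.48. In both genes the array labelled Lac10 replicate 1 was the lowest of the Lac10 arrays. The other 8 were Drd4, a dopamine receptor gene (2.27), Gna15 (2.22), the cytokine gene Il15 (1.83), Galns, a lysosomal sulphatase gene (1.73), Scd3, a fatty acid desaturase gene (1.49), Apol7a (1.13), Sytl1 (0.98) and Slc25a2, a mitochondrial carrier gene (0.84). All 10 shared the adjusted p of 0.353.

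Without the array labelled Lac10 replicate 1, 148 genes were called, 133 higher and 15 lower (0.873% and 0.0985% of genes tested), and 1589 had an unadjusted p under 0.05. The rises had a median of 1.78 and ran from 0.82 to 5.04, and the falls ran from -1.04 to -2.33. All 148 had the same sign with 6 arrays, and their 5 arrays did not overlap between groups. Both follow largely from the choice of these genes on the same arrays. The 2 Lac10 arrays lay above the 3 dp18 arrays in 17.8% of all genes and below them in 7.98%. The difference was above 0 in 8491 of the 15234 genes tested and below 0 in 6742. On the left-out array, 143 of the 148 genes lay nearer to the dp18 mean than to the mean of the other 2 Lac10 arrays, and 54 lay within the dp18 range. The 148 genes passed only with that array left out, so these counts are partly set by the choice of genes. The share over all genes was not computed. The array labelled mutant dp18 replicate 2 lay nearer to Lac10 replicates 2 and 3 than to the wild-type dp18 mean in 17 of the 148 genes.

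The count of 148 depended on single arrays. It was 64 without dp18 replicate 3, and 26 and 20 without Lac10 replicates 2 and 3, where the lone Lac10 array is assumed to vary like the other groups. It was 13 when only the arrays of these 2 groups entered the fit, and 111 without dp18 replicate 1, of which 93 were among the 148. Centred on 21 housekeeping genes, the call count was 424, with 144 higher and 280 lower, and the median of all genes stood at -0.25 in place of 0.05. In all 19 alternatives run, those with other scalings included, each of the 148 genes kept its sign.

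**Figure D2:**
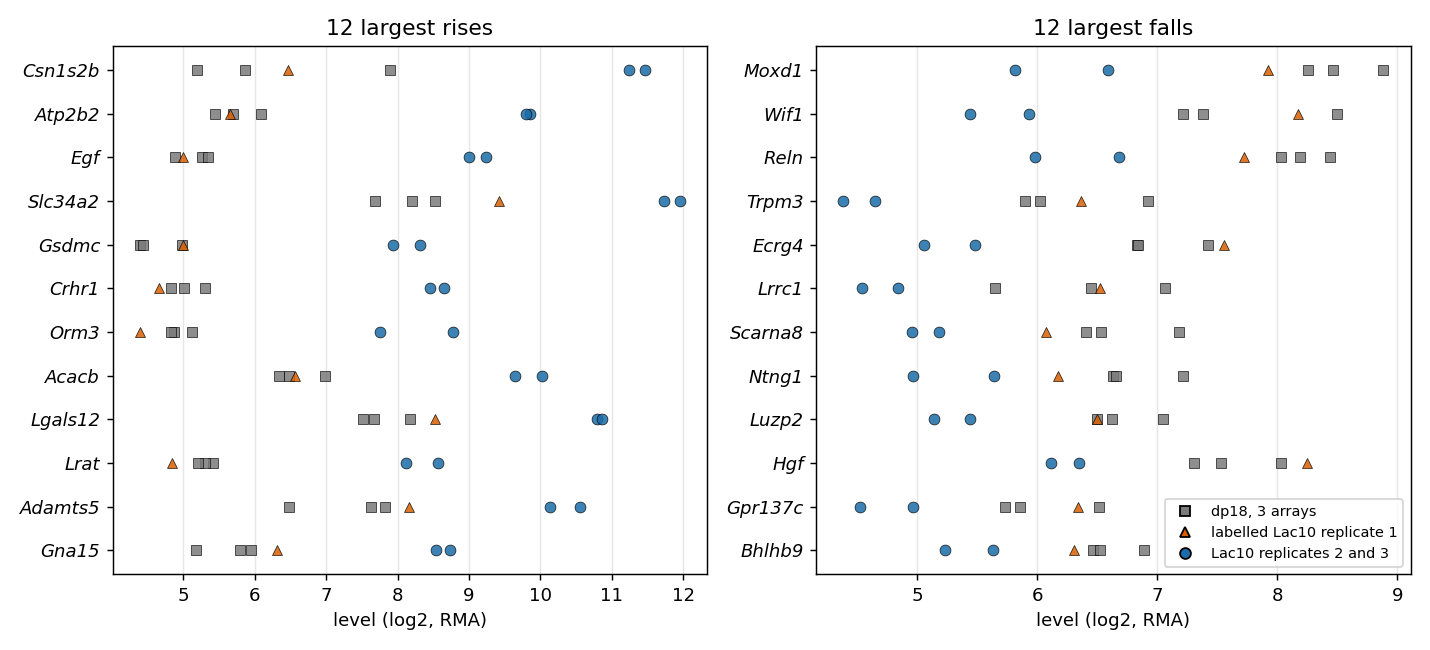
Levels (log2, RMA; horizontal axes) of the 12 largest rises and the 12 largest falls called without the array labelled Lac10 replicate 1, with squares for the 3 dp18 arrays, circles for Lac10 replicates 2 and 3 and triangles for the left-out array. In Csn1s2b the circles lie at 11.47 and 11.24 and the triangle at 6.47, among the squares.

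Among milk proteins, the casein gene Csn1s2b showed the largest rise of all genes. It lay at 5.87, 7.89 and 5.20 at dp18 (6.32 ± 1.40, SD, n = 3), at 11.47 and 11.24 on Lac10 replicates 2 and 3, and at 6.47 on the left-out array. The rise was 5.04 (SE 1.00, limma adjusted p = 0.0146), and 3.41 with 6 arrays (adjusted p = 0.431). The other 4 casein genes did not pass: Csn3, which stabilises the casein micelle, differed by 0.82, Csn1s1 by 0.12, Csn1s2a by 0.11 and Csn2 by -0.06. Csn1s1, Csn1s2a and Csn2 all lay above 12 on each of the 6 arrays, within 1.5 units of the top of the scale. The casein list median was 0.12 and turned to -0.18 when arrays were centred on housekeeping genes.

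Of 12 measured genes for whey and other secreted milk proteins 11 were higher and 1 was called, against 0.873% of all genes called higher. Their median was 1.13 beside 0.05 for all genes, and 0.85 with 6 arrays. The called gene was Lpo, which encodes lactoperoxidase, an antibacterial enzyme of milk. Its levels were 6.90, 7.78 and 6.38 at dp18 and 8.76 and 10.12 on Lac10 replicates 2 and 3, with 7.49 on the left-out array. It rose by 2.42 (SE 0.43, adjusted p = 0.00851). Cel, a lipase gene of milk, was at 9.31, 10.09 and 9.11 and then at 11.93 and 11.92, a difference of 2.42 that did not pass (adjusted p = 0.192). Lalba, whose product turns galactosyltransferase into lactose synthase, differed by 1.95 (SE 1.15, adjusted p = 0.634) with levels of 11.02, 10.88 and 10.22 against 12.65 and 12.66. Wap, the whey acidic protein gene, differed by 0.90 (adjusted p = 0.739). Both Lac10 arrays lay above all dp18 arrays for Cel, Lalba and Wap. All 7 measured genes of lactose synthesis were higher, with a median of 0.95 and none called. That median was 0.52 without dp18 replicate 1 and 0.63 without Lac10 replicate 3.

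Fatty acid synthesis genes were higher throughout. All 19 measured members were higher at Lac10, with a median of 1.46 (1.18 with 6 arrays, and 1.16 centred on housekeeping genes). Of these 19, 4 were called, against 0.873% of all genes called higher. With all 6 arrays 14 of the 19 still had every Lac10 value above every dp18 value, where 9.83% of all genes did so. Slc25a1, the carrier that exports citrate from mitochondria for fatty acid synthesis, lay at 9.51, 9.58 and 8.98 and then at 11.65 and 11.86, with 9.76 on the left-out array. It rose by 2.39 (SE 0.47, adjusted p = 0.0146). Acss2, which makes acetyl-CoA from acetate, rose by 2.07 (adjusted p = 0.0257), Aacs, which activates acetoacetate, by 2.04 (adjusted p = 0.0146), and the elongase gene Elovl5 by 1.82 (adjusted p = 0.0163). Without dp18 replicate 1 the Aacs call was lost (adjusted p = 0.0555). Among members that did not pass, Acly, the ATP citrate lyase gene, differed by 1.65 (adjusted p = 0.0578), Me1, the malic enzyme gene, by 2.12 (adjusted p = 0.0799) and Fasn, the fatty acid synthase gene, by 1.21. Acacb, which encodes the acetyl-CoA carboxylase of the mitochondrial surface and is in none of the lists, rose by 3.23 (SE 0.75, adjusted p = 0.0398), from 6.34, 6.99 and 6.47 to 9.64 and 10.02. Its call was lost without dp18 replicate 1 (adjusted p = 0.105).

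All 19 measured genes of sterol synthesis and uptake were higher too (median 0.98, and 0.72 with 6 arrays). Of these 19, 5 were called, against 0.873% of all genes called higher. With 6 arrays all Lac10 values lay above all dp18 values for 9 of the 19, against 9.83% of all genes. Insig1 encodes the protein of the endoplasmic reticulum that retains SREBP, and is itself an SREBP target. It lay at 8.41, 8.34 and 7.94 at dp18, at 10.72 and 11.19 on Lac10 replicates 2 and 3, and at 8.67 on the left-out array. The rise of Insig1 was 2.72 (SE 0.52, adjusted p = 0.0123). Enzymes of the pathway also rose. Fdps, which makes farnesyl diphosphate, rose by 1.93 (adjusted p = 0.0028) and Lss, lanosterol synthase, by 1.73 (adjusted p = 0.00448). Tm7sf2, a sterol reductase gene, rose by 1.42 (adjusted p = 0.00214) and Mvd, mevalonate diphosphate decarboxylase, by 1.36 (adjusted p = 0.0229). Mvd lost its call without dp18 replicate 1 (adjusted p = 0.0826). Sqle, the squalene epoxidase gene, did not pass at 1.81 (adjusted p = 0.0866), and the SREBP genes themselves differed by 0.79 (Srebf1) and 0.25 (Srebf2) without passing.

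For triglyceride assembly and the milk fat globule, 11 of 14 genes were higher, with a median of 1.21 (0.95 with 6 arrays). Of the 14, 2 were called, against 0.873% of all genes called higher. Cidea, a lipid droplet protein gene, lay at 8.73, 9.42 and 8.16 and then at 11.64 and 11.82, with 8.19 on the left-out array. It rose by 2.96 (SE 0.70, adjusted p = 0.0475). Agpat1, which adds the second fatty acid to the glycerol backbone, rose by 1.33 (adjusted p = 0.0311). Both lost their calls without dp18 replicate 1, with adjusted p = 0.103 and 0.092. Btn1a1, the butyrophilin gene of the globule membrane, differed by 1.48, the lipoprotein lipase gene Lpl by 1.40 and Xdh, whose product binds butyrophilin, by 1.07, none of them passing.

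Among 19 membrane transporter genes of milk 4 were called, against 0.873% of all genes called higher. All 4 were ion carriers or pumps. Atp2b2 encodes the calcium pump of the apical membrane that secretes most milk calcium. It lay at 6.09, 5.70 and 5.44 at dp18 and at 9.85 and 9.79 on Lac10 replicates 2 and 3, and the left-out array was at 5.65, inside the dp18 range. The rise was 4.08 (SE 0.77, adjusted p = 0.0114). Slc34a2, a sodium-phosphate carrier gene, rose by 3.71 (SE 0.79, adjusted p = 0.0257), from 8.52, 8.21 and 7.68 to 11.73 and 11.95, with 9.42 on the left-out array. Slc30a2, the zinc exporter gene of milk secretion, rose by 2.48 (adjusted p = 0.00961), and Slc5a5, the sodium-iodide symporter gene, by 2.19 (SE 0.37, adjusted p = 0.00448). All 4 kept their calls without dp18 replicate 1, with adjusted p between 0.0163 and 0.0439. None of the 4 kept its call in every fit that left out 1 more of the 5 arrays. Slc34a2 kept its call only where the array left out was dp18 replicate 1. Atp2c2, a calcium pump gene of the secretory pathway, differed by 2.31 (adjusted p = 0.0642). The glucose carrier gene Slc2a1 differed by 0.01. Over the list 15 of 19 genes were higher, with a median of 0.91 (0.76 with 6 arrays).

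**Figure D3:**
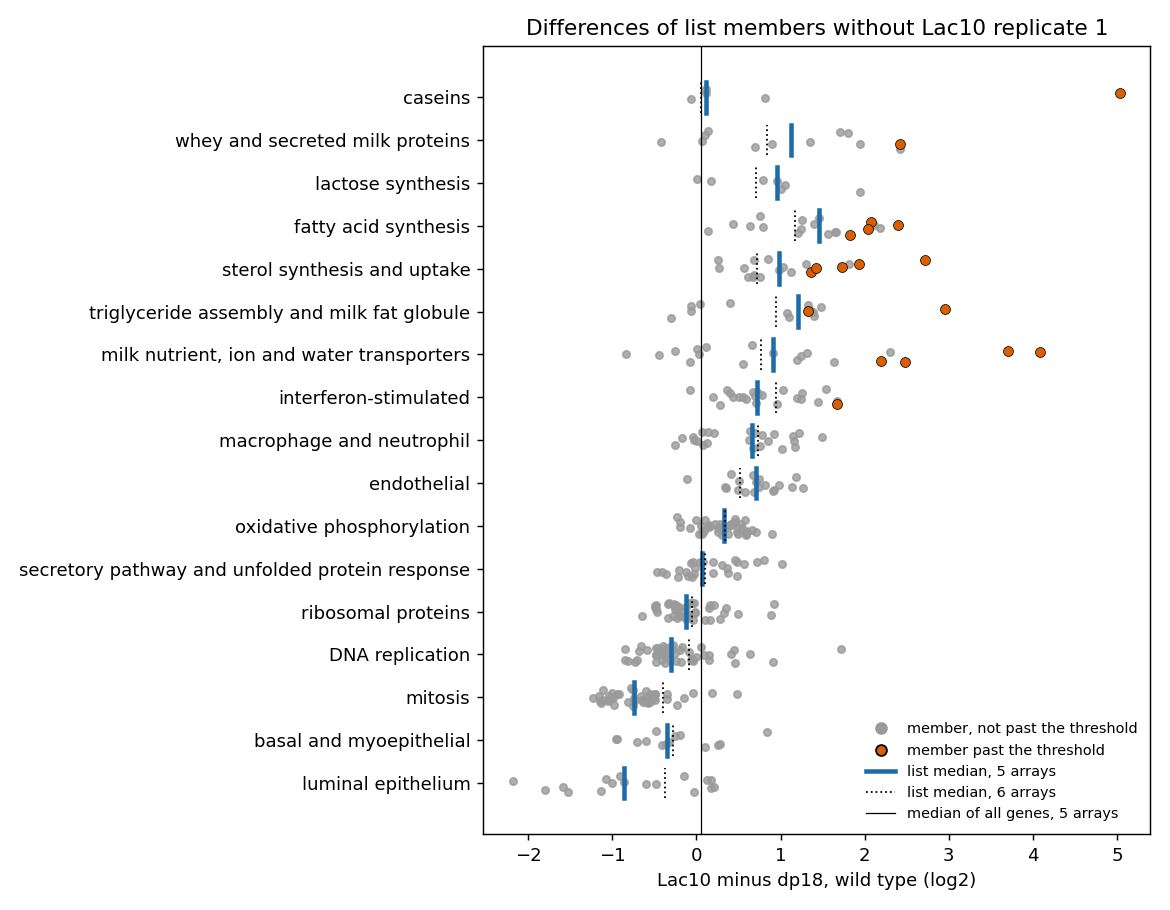
Differences (Lac10 minus dp18, log2; horizontal axis) without the array labelled Lac10 replicate 1, with 1 point per list member, orange where the adjusted p was under 0.05, a blue bar for the list median, a dotted bar for the median with 6 arrays and a vertical line for the median of all genes. The fatty acid and sterol lists lie wholly above 0, and the mitosis list has 41 of 43 members below 0.

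The remaining genes among the 12 largest rises lay outside the milk, lipid and transporter lists. Egf, the epidermal growth factor gene, lay at 5.26, 5.34 and 4.88 and then at 9.24 and 9.00, with 4.99 on the left-out array. It rose by 3.96 (SE 0.58, adjusted p = 0.00157). Crhr1, the receptor gene for corticotropin-releasing hormone, had the smallest p of all and rose by 3.50 (SE 0.23, adjusted p = 5.43e-08), from 5.30, 4.83 and 5.01 to 8.65 and 8.45. For both genes the groups lay more than 3 units apart once the left-out array was set aside. Gsdmc, of the pore-forming gasdermin family, rose by 3.53 (adjusted p = 8.38e-05), Orm3, of the orosomucoid plasma protein family, by 3.32 (adjusted p = 4.19e-06) and Lgals12, a galectin gene of lipid droplets, by 3.05 (adjusted p = 0.0146). Lrat, which stores retinol as its ester, rose by 3.03 (adjusted p = 8.38e-05), the matrix protease gene Adamts5 by 3.03 (adjusted p = 0.0115) and the G protein alpha subunit gene Gna15 by 2.99 (adjusted p = 0.000551). On the left-out array Crhr1, Orm3 and Lrat lay at 4.66, 4.40 and 4.84, each below all 3 dp18 arrays.

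Among the 15 falls Moxd1, a copper monooxygenase gene, had the largest, from 8.25, 8.47 and 8.88 to 6.59 and 5.81, a fall of 2.33 (SE 0.52, adjusted p = 0.0322). Its call was lost without dp18 replicate 1 (adjusted p = 0.0503). Wif1, a secreted Wnt inhibitor gene, fell by 2.01 (SE 0.39, adjusted p = 0.0128), from 7.22, 7.38 and 8.50 to 5.44 and 5.93, and stood at 8.17 on the left-out array. Reln, which encodes the secreted protein reelin, fell by 1.89 (adjusted p = 0.0163) and Hgf, the hepatocyte growth factor gene, by 1.39 (adjusted p = 0.0339). On the left-out array Hgf lay at 8.25 and Ecrg4 at 7.56, above all dp18 arrays. The other large falls were in the cation channel gene Trpm3 (-1.77), Ecrg4, for a secreted peptide precursor (-1.76), Lrrc1 (-1.70), the small Cajal body RNA gene Scarna8 (-1.63), Ntng1, of the netrin family (-1.53), Luzp2 (-1.44), Gpr137c (-1.29) and Bhlhb9 (-1.20). The 3 falls outside these 12 were Nup62cl (-1.18), the elongase gene Elovl4 (-1.18) and Znrf3, for a ubiquitin ligase that removes Wnt receptors (-1.04), named after their values were seen. A second Luzp2 probe set differed by -0.34. Without dp18 replicate 1, 11 of the 15 were still called, and beside Moxd1 the calls lost were Ntng1 (adjusted p = 0.0694), Scarna8 (0.146) and Nup62cl (0.0529).

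Prolactin and steroid receptor signalling genes gave no calls. The list of prolactin, Stat5 and alveolar factors had 11 of 18 members higher with a median of 0.12, which turned to -0.18 under housekeeping centring. Stat5a differed by 1.14 (SE 0.37, adjusted p = 0.195), from 7.61, 8.26 and 8.05 to 9.00 and 9.23, and Elf5 by 0.87 (adjusted p = 0.649). For Stat5a both Lac10 arrays and the left-out array, at 8.66, lay above all dp18 arrays. Esr1, the oestrogen receptor alpha gene, lay at 6.41, 6.46 and 6.43 at dp18, at 7.94 and 8.03 on Lac10 replicates 2 and 3, and at 6.33 on the left-out array. Its difference of 1.55 (SE 0.37) missed the threshold at an adjusted p of 0.0521. Pgr, the progesterone receptor gene, differed by -0.68 (adjusted p = 0.553). In the hormone-sensing luminal epithelium list, which holds Esr1 and Pgr, 3 of 10 measured members were higher and 7 lower. The median of that list was -0.16, and -0.20 with 6 arrays and -0.35 without dp18 replicate 1. Brca1, the subject of the series, lay at 5.37, 5.41 and 5.70 and then at 4.64 and 5.39, a difference of -0.48 (adjusted p = 0.73). Oxtr, the oxytocin receptor gene through which milk is let down, differed by 0.10.

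**Figure D4:**
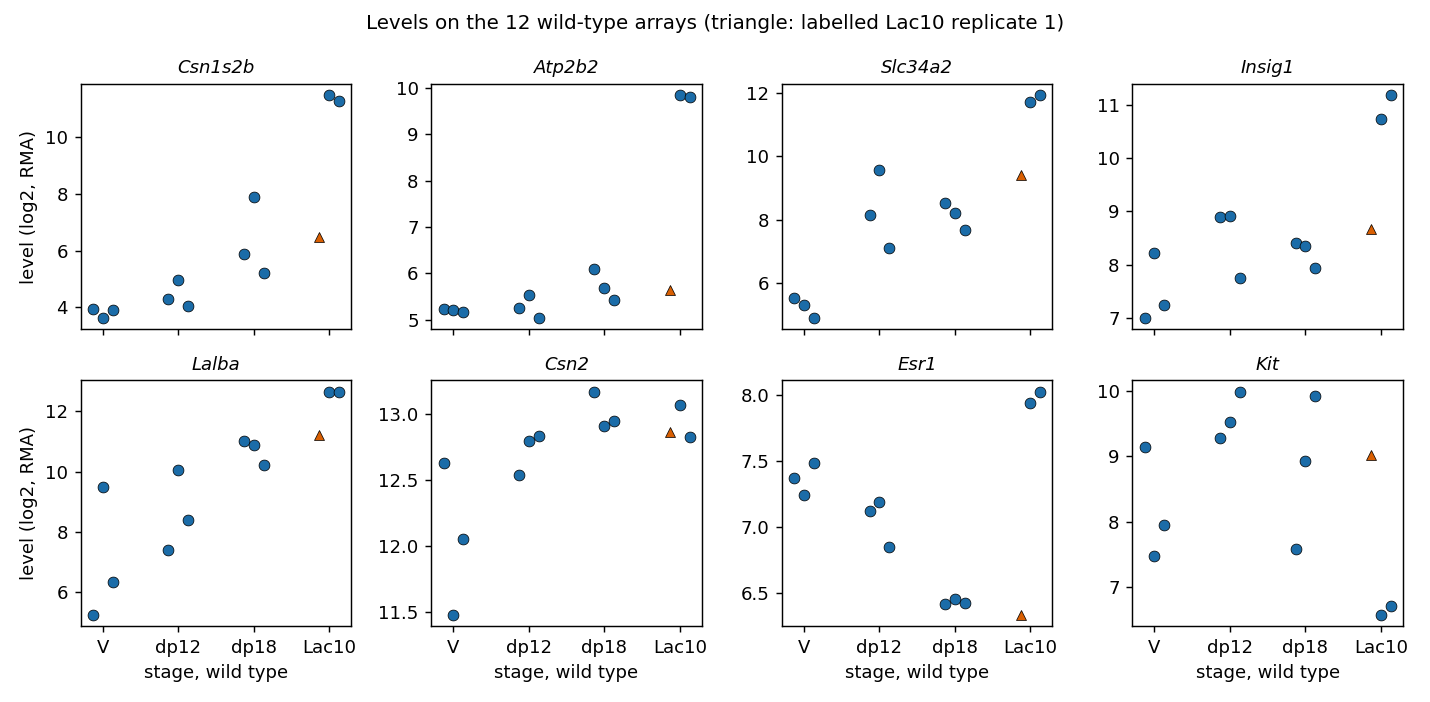
Levels (log2, RMA; vertical axes, each with its own range) of 8 genes on the 12 wild-type arrays at the stages V, dp12, dp18 and Lac10 (horizontal axes), 1 point per array, with a triangle for the array labelled Lac10 replicate 1. For Csn1s2b, Atp2b2, Insig1, Esr1 and Kit the triangle lies with the dp18 arrays or among those of earlier stages, away from Lac10 replicates 2 and 3.

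Levels at the earlier stages differed from gene to gene. Atp2b2 lay at 5.20 ± 0.03 (SD, n = 3) at V, 5.28 ± 0.26 at dp12 and 5.74 ± 0.33 at dp18 before its Lac10 values of 9.85 and 9.79. Egf and Crhr1 likewise lay near 5 at each earlier stage, with means of 5.01, 4.74 and 5.16 for Egf and 5.11, 4.83 and 5.05 for Crhr1. Slc34a2 instead was at 5.22 ± 0.32 at V and already at 8.27 ± 1.25 at dp12. Wap had means of 6.03 at V, 8.76 at dp12 and 11.12 at dp18. Esr1 was at 7.37 ± 0.12 at V, 7.06 ± 0.18 at dp12 and 6.43 ± 0.02 at dp18, below its values on Lac10 replicates 2 and 3.

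Markers of luminal epithelium and of dividing cells were lower in most members but gave no call. In bulk RNA, fewer cells of a type and less RNA per cell cannot be told apart. In the luminal epithelium list 13 of 17 members were lower (median -0.86, and -0.37 with 6 arrays), led by Kit, a receptor of luminal progenitors, at -2.17 (SE 0.64, adjusted p = 0.132). Kit lay at 7.58, 8.94 and 9.92 at dp18, at 6.57 and 6.71 on Lac10 replicates 2 and 3 and at 9.01 on the left-out array, and it passed without dp18 replicate 1 (-2.79, adjusted p = 0.0422). The tight junction gene Cldn4 differed by -1.80, the keratin gene Krt18 by -1.58 and Aldh1a3 by -1.53. On its other probe set Krt18 differed by -0.73. In the basal and myoepithelial list 10 of 14 were lower (median -0.35), with Krt14, a basal keratin gene, at -0.96.

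Of 43 mitosis genes 41 were lower, with a median of -0.74 beside 0.05 for all genes, and of -0.39 with 6 arrays and -1.05 without both the left-out array and dp18 replicate 1. Ndc80, of the kinetochore, lay at 5.49, 6.78 and 7.84 at dp18 and at 5.49 and 5.46 on Lac10 replicates 2 and 3, a difference of -1.23 (adjusted p = 0.545). Replicate 1 of dp18 thus lay with the Lac10 arrays for Ndc80. Mki67, a marker of cycling cells, differed by 0.49 (adjusted p = 0.867), and by -0.08 without dp18 replicate 1. Of 47 DNA replication genes 37 were lower (median -0.30), with Fen1, the flap endonuclease gene, at 1.72 (adjusted p = 0.13) and at 0.09 on its other probe set. Of 29 homologous recombination and Fanconi repair genes 24 were lower (median -0.28). The p53 target list had a median of 0.28, with Cdkn1a, the p21 gene, at 0.51, and the list stood at -0.02 under housekeeping centring and at -0.10 without dp18 replicate 1. Leaving out Lac10 replicate 2 brought the replication and repair medians to -0.10 and -0.12, and leaving out dp18 replicate 3 brought the mitosis median to -0.43.

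Interferon-stimulated genes had a higher mean level on each Lac10 array than on any dp18 array, the array labelled replicate 1 included: 7.84, 7.09 and 7.60 on Lac10 replicates 1, 2 and 3 against 6.14, 6.61 and 6.84. For 16 of the 24 members every Lac10 value lay above every dp18 value, where 9.83% of all genes did so. Of 24 measured members 23 were higher, with a median of 0.71 (0.95 with 6 arrays, 0.57 without dp18 replicate 1). Of the 24, 1 was called, against 0.873% of all genes called higher. That gene, Cmpk2, a mitochondrial nucleotide kinase gene, lay at 8.01, 8.05 and 8.07 at dp18 and at 9.14, 9.61 and 9.82 on Lac10 replicates 1, 2 and 3. It rose by 1.68 (SE 0.40, adjusted p = 0.0489), a call lost without dp18 replicate 1 (adjusted p = 0.105). Ifit1, one of the promoters shown above, lay at 5.83, 6.12 and 6.39 and then at 8.04, 7.26 and 7.36, a difference of 1.20 (adjusted p = 0.411). Rsad2, the other, lay at 6.98, 8.16 and 7.96 and then at 8.59, 9.00 and 9.28, a difference of 1.44 (adjusted p = 0.289). In both genes the 3 Lac10 arrays lay above the 3 dp18 arrays.

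Markers of other cell types moved in the same comparison without passing in most cases. In the macrophage and neutrophil list 20 of 24 members were higher and none was called (median 0.66, and 0.32 without dp18 replicate 1). Their mean level was 5.78, 6.50 and 6.54 on the dp18 arrays and 7.09, 6.70 and 6.95 on Lac10 replicates 1, 2 and 3. Endothelial genes were higher in 18 of 19 (median 0.71, none called, and 0.35 without dp18 replicate 1 or 0.38 without Lac10 replicate 2), with means of 7.61, 8.95 and 8.69 and then 8.49, 9.41 and 8.82, so that the groups overlapped. T and B lymphocyte genes had a median of -0.03, with means of 5.44, 5.28 and 5.63 and then 6.40, 5.47 and 5.44, the array labelled replicate 1 being the highest. Antigen presentation genes had a median of 0.45, which was 0.01 without dp18 replicate 1. The part of these markers in the milk, lipid and interferon results was not tested.

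Of 8 measured plasma cell genes 6 were higher (median 0.14) and 1 was called, against 0.873% of all genes called higher. The called gene was Derl3, of the system that disposes of misfolded proteins. It rose by 2.30 (SE 0.31, adjusted p = 0.000633), from 5.38, 5.60 and 5.61 to 8.16 and 7.51. Sdc1 of the same list differed by -0.26. The antibody chain genes of that list, Jchain and Ighm, differed by 1.00 and 0.83 with overlapping groups. Of 6 other Ighm probe sets 4 had the same sign, from 0.13 to 0.76, and the other 2 were at -0.86 and -0.75. Of 4 measured brown adipocyte genes 3 were higher (median 0.50) and 1 was called, against the same 0.873%. The called gene was Otop1, a proton channel gene, at 2.18 (SE 0.35, adjusted p = 0.00321). Dio2 differed by 0.18, with another probe set of opposite sign. Ppargc1a differed by -0.65, with Lac10 replicates 2 and 3 below all dp18 arrays. White adipocyte genes had a median of 0.04, fibroblast and matrix genes 0.16, skeletal muscle genes -0.22 and peripheral nerve genes -0.11, none with a called member. The adipocyte and fibroblast medians turned negative under housekeeping centring, at -0.27 and -0.14, and the fibroblast median stood at -0.29 without dp18 replicate 1. The 5 measured keratinocyte and hair follicle genes had a median of -0.59.

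Lists of general cell machinery gave no call. Of 41 oxidative phosphorylation genes 36 were higher, with a median of 0.32 that shrank to 0.02 under housekeeping centring, and 43 ribosomal protein genes had a median of -0.13. Genes of the secretory pathway and unfolded protein response had a median of 0.06, of -0.24 under housekeeping centring and of -0.15 without dp18 replicate 1, with the largest difference in Trib3 at 1.02 (adjusted p = 0.279). Serine, glycine and amino acid synthesis genes had a median of 0.38, with Gldc, of the glycine cleavage system, at 1.79 (adjusted p = 0.192). The circadian clock, immediate early and involution lists had medians of 0.41, -0.05 and -0.16 and no called member. In the involution list Igfbp5, which binds insulin-like growth factors, differed by -1.64 (adjusted p = 0.107), from 9.82, 9.20 and 10.37 to 7.95 and 8.36, with 10.18 on the left-out array. The housekeeping list had a median of 0.02, with Tfrc, the transferrin receptor gene, at 1.48 (adjusted p = 0.0701).

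The wild-type step was then set against the same step in mutants, on arrays that the steps do not share. With all arrays the difference between steps passed for 0 genes in limma, while 954 had p under 0.05 before adjustment and array weights gave 217 calls. With the array labelled wild-type Lac10 replicate 1 left out it passed for 30 genes (0.197% of genes tested), each with the larger step in wild type, and 1109 had p under 0.05 before adjustment. No mutant array was left out of that fit. As deviations from the mean of all arrays, mutant Lac10 replicates 1, 2 and 3 correlated at 0.02, 0.33 and -0.09 with their own group. Mutant dp18 replicates 1, 2 and 3 correlated at -0.40, -0.21 and -0.40 with theirs. The part of this in the 30 genes was not tested. Mutant arrays did not follow the wild-type pair in Crhr1, which lay at 5.14, 5.54 and 5.06 at mutant dp18 and at 5.04, 5.70 and 5.75 at mutant Lac10. The step of Crhr1 was larger in wild type by 3.25 (SE 0.31, adjusted p = 3.14e-05). Insig1 lay at 8.60, 9.52 and 8.27 at mutant dp18 and at 7.55, 6.74 and 9.10 at mutant Lac10, and its step was larger in wild type by 3.72 (SE 0.70, adjusted p = 0.0362). Drd4 lay at 6.33, 7.01 and 7.48 and then at 5.08, 5.53 and 6.43 in mutants, with a difference between steps of 4.10 (SE 0.62, adjusted p = 0.00708).

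Milk genes were not among those 30 apart from Lpo, and 4 of them belong to sterol synthesis (Insig1, Fdps, Lss and Tm7sf2). For Csn1s2b the mutant arrays lay at 6.30, 10.37 and 5.93 at dp18 and at 8.19, 10.43 and 11.32 at Lac10, and the difference between steps was 2.59 (adjusted p = 0.733). The high value at mutant dp18 is that of the array labelled replicate 2, whose nonagouti level also went against its label. Without that array 12 of the 30 genes remained. The count was 256 without mutant Lac10 replicate 3, 9 and 12 without mutant Lac10 replicates 2 and 1, 16 without mutant dp18 replicate 3, 12 and 11 without wild-type dp18 replicates 1 and 3, and 4 without either of wild-type Lac10 replicates 2 and 3. Centred on housekeeping genes it was 0, with a smallest adjusted p of 0.0603.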

How the data were processed

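RNA was labelled as biotin cRNA and hybridised to single-colour arrays, per the labels' protocols. The authors deposited log2 expression values, made with RMA per the submitters' processing notes, with its version not stated. RMA normalises between arrays, which can remove part of a change common to most genes, and the deposited arrays still differed in their median (5.31 to 5.62) and SD (1.65 to 1.99). The genome build of the probe sets is not given in the sources used here. The platform annotation gives 1 gene symbol for 23521 of 41345 probe sets, several for 1814 and none for 16010. The first kind hold 22180 genes, each represented by its probe set of highest mean. Genes above the array median on at least 3 arrays were tested, which kept 15234 and removed 6946.

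Each gene was fitted with limma 3.58.1 in R 4.3.3, with 1 mean per group over 24 arrays (16 residual degrees of freedom) or over 23 with wild-type Lac10 replicate 1 left out (15). Groups came from the titles and labels. Replicate numbers were not used as pairs: the deviations of arrays of the same number correlated at -0.255, 0.026 and -0.387. The step was also compared between genotypes as a contrast. The procedure was also run on simulated arrays, with independent normal values, the same spread on every array and correct labels. Such arrays cannot speak to an array that goes against its label or stands apart from its group. Largest changes were named by rule: the 12 largest rises and falls among called genes without overlap, or the 10 smallest p values where fewer than 5 passed, up to 4 members per list and a set of fixed genes, of which Prlr had no probe set with a single symbol. Other names were chosen after their values were seen. The members, the 36 gene lists and the tests were chosen with earlier results of these data known. Alternatives changed the arrays fitted, the probe set, the filter, the scaling and the variance model, or left out arrays. Promoters were matched by symbol.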

Additional observations from a re-analysis of the deposited data

Results flagged for a closer look

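The step from dp18 to Lac10 differed between wild type and mutants, by the contrast fitted in limma with the array labelled wild-type Lac10 replicate 1 left out, in 30 genes, and each difference given here is the wild-type step minus the mutant step on the log2 scale. The genes of smallest p were Crhr1 at 3.25, Gsdmc at 3.53, Lrat at 3.05, Drd4 at 4.10, Fkbp11 at 3.18, Slc9a2 at 2.25, Gna15 at 3.39, Orm3 at 2.49, Gnal at 1.93 and Angpt1 at 3.24, with adjusted p between 3.14e-05 and 0.0131. For Angpt1 the wild-type step was 2.22 on the probe set fitted and 0.53 on its other probe set. Sterol synthesis genes among them were Insig1 at 3.72, Fdps at 2.29, Lss at 2.02 and Tm7sf2 at 1.49. The milk enzyme gene Lpo was at 3.04, the cytokine gene Il15 at 2.77 and the vitamin carrier gene Slc5a6 at 2.06. In Drd4 and Insig1 the mutant means were lower at Lac10 than at dp18, with 5.68 ± 0.69 against 6.94 ± 0.58 and 7.80 ± 1.20 against 8.80 ± 0.65 (SD, n = 3). Orm3 was higher at Lac10 in mutants too, at 5.71 ± 0.10 against 4.88 ± 0.34. The mutant arrays of both stages resembled their own groups poorly, as given above.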

How the results depend on the processing

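With 6 arrays the count of called genes was 0 in every alternative but array weights (3898) and leaving out 1 array each (0 to 148, the 148 without the array labelled Lac10 replicate 1). Without that array, the count of 148 became 13 with only the arrays of the 2 groups, 257 after quantile normalization (212 higher, 45 lower), 424 with housekeeping centring (144 higher, 280 lower), 3487 with array weights and 588 without the 3 arrays of lowest correlation (252 higher, 336 lower). With the replicate block it was 94, and 10 for the difference between genotypes in place of 30, and arrays of the same number were not shown to be paired. Leaving out 1 more wild-type array gave 20 to 128. The other alternatives gave 136 to 199, among them 149 without mutant dp18 replicate 2. For the difference between the wild-type and mutant steps, all arrays gave 0, array weights 217 and leaving out 1 array each 0 to 43. Without the array labelled Lac10 replicate 1 the 30 became 0 with housekeeping centring, 12 without mutant dp18 replicate 2, 363 with array weights and 4 to 256 with 1 more array left out. None of the 148 genes turned its sign in any of the 19 alternatives, which was largely fixed by how the genes were chosen. The causes of these shifts were not tested. Limits: 2 arrays carry the Lac10 level in the second version, both with a brown coat and a weight of 39 g in the titles, and the part of coat and weight was not tested. Probe sets near 13 leave little range for further rises.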

Other observations

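Of the 148 genes called with the array labelled wild-type Lac10 replicate 1 left out, 20 belong to a list. Those described in the next sentences, apart from Fkbp11, fall outside the lists and the naming rule and were named after their values were seen. Qsox1, which forms disulphide bonds in secreted proteins, lay at 7.79, 8.92 and 8.37 at dp18 and at 11.24 and 11.32 on Lac10 replicates 2 and 3, a rise of 2.92 (limma, adjusted p = 0.00332). Ccl28, a chemokine gene known for drawing antibody-producing cells to the lactating gland, rose by 2.25 (adjusted p = 0.0455), from 6.94, 7.61 and 7.90 to 9.45 and 10.00, a call that was lost without dp18 replicate 1 (adjusted p = 0.141). Orm1 rose by 2.60 beside Orm3, a call lost without dp18 replicate 1 (adjusted p = 0.0694). The sorting receptor gene Sort1 rose by 2.67, while its other probe set differed by 0.37. Fkbp11, a folding enzyme gene of the endoplasmic reticulum, rose by 2.23 and Sec16b, of the exit sites from it, by 2.01, and the Sec16b call was lost without dp18 replicate 1 (adjusted p = 0.141).

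Some further rises were in genes of energy metabolism and its control, chosen in the same way. Dlat and Pdhx, both of the pyruvate dehydrogenase complex, each rose by 1.27 (adjusted p = 0.0347 and 0.00653), and Bckdha, of branched-chain amino acid breakdown, by 1.36. Prkaa2, a catalytic subunit gene of the AMP-activated kinase, rose by 2.29, the insulin receptor substrate gene Irs1 by 2.01 and the transcription factor gene Klf15 by 1.78. Another Irs1 probe set differed by 0.18. Without dp18 replicate 1 the calls of Dlat (adjusted p = 0.108), Bckdha (0.1), Irs1 (0.134) and Klf15 (0.0779) were lost. For Pdhx the dp18 arrays lay at 6.09, 6.06 and 6.23 and Lac10 replicates 2 and 3 at 7.23 and 7.56, with the left-out array at 6.40. Scnn1g, a subunit gene of the epithelial sodium channel, rose by 2.46 (adjusted p = 0.00152), from 6.14, 6.44 and 6.87 to 9.16 and 8.72.

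Calls were kept in each fit that left out 1 more of the 5 arrays by 15 genes, namely Crhr1, Ddah1, Derl3, Egf, Gna15, Gnal, Gsdmc, Lrat, Mfsd4a, Mmp25, Orm3, Prss35, Slc9a2, Slco4c1 and Steap1. Mfsd4a has another probe set, which differed by 0.68 where the one fitted rose by 2.02. Ddah1, which breaks down methylated arginine, lay at 5.99, 5.99 and 5.84 at dp18, at 5.97 on the left-out array and at 9.01 and 8.29 on Lac10 replicates 2 and 3. Prss35 lay at 4.88, 4.83 and 4.71, at 4.65 and at 7.31 and 7.21 on the same arrays.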
